A study of Homo sapiens with 6 samples.

Results

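The genes described here are 37 members of the NF-kB system, comprising the Rel subunits, their inhibitors and kinases, the receptors and adaptors upstream of them, and genes that the pathway is known to induce. They were chosen by name as rows of the deposited gene tables, and all 37 were found among 28265 gene symbols. The cells were LN229, a line established from a human glioblastoma, and their total RNA had been sequenced in 6 libraries: 3 labelled WT, called control here, and 3 labelled TRIM25 knockdown, which the series design describes as derivatives made with a short hairpin RNA (shTRIM25). All cells were cultured in the same serum-containing medium, with no cytokine or other NF-kB stimulus named in the labels. The labels do not say whether the control cells carried a hairpin of their own, how many hairpins or clones were used, or whether replicates were grown separately. The p-values therefore reflect the spread among these 6 libraries, which may be technical.

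TRIM25 mRNA itself went against the label. It stood at 35.3, 35.8 and 35.6 CPM (read counts scaled to library size) in the control libraries and at 80.3, 79.98 and 88.5 CPM in the libraries labelled knockdown. The latter were 2.34-fold higher (log2 fold change 1.22 ± 0.07 SE, adjusted p by edgeR = 3.22e-09), so directions below are those of the labelled groups and not of a loss of TRIM25 mRNA. Total counts ranged from 11349865 to 16404725 per library. Of the 12 markers listed for glioblastoma lines, 9 exceeded 1 CPM in all 6 libraries, among them VIM, CD44 and EGFR. Of these 9, NES was called higher (log2 fold change 0.27) and SOX2 (-0.66), OLIG2 (-0.67) and S100B (-0.33) lower, with edgeR adjusted p of 7.27e-04, 1.45e-06, 0.00482 and 6.38e-04. GFAP was at 0.509 ± 0.07003 and 0.314 ± 0.191 CPM and SOX9 at 0.91 ± 0.353 and 0.265 ± 0.0965 CPM. CHI3L1 was at 0.0872 ± 0.0337 CPM in the control libraries and had no count in those labelled knockdown. GFAP, SOX9 and CHI3L1 were too low to be tested. Summed over 10 immune cell markers the level was 47.0 to 48.9 CPM in the control libraries and 61.1 to 76.6 CPM in the libraries labelled knockdown, most of it from CD68 (44.9 ± 1.09 and 63.3 ± 7.18 CPM). Both immune markers that passed the filter were called higher, CD68 by 0.49 on the log2 scale (edgeR adjusted p = 2.99e-04) and ITGAM, at 1.22 ± 0.3497 and 2.99 ± 0.514 CPM, by 1.28 (0.00156). The defining leukocyte marker PTPRC was at 0.108 ± 0.0699 and 0.326 ± 0.199 CPM, and AIF1 and TYROBP had no count in any library. The part of these markers in the results below was not tested. Fewer cells of a kind and less RNA per cell cannot be told apart in such bulk libraries.

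NF-kB is a family of dimeric transcription factors built from the Rel subunits. In resting cells IkB proteins keep most dimers in the cytoplasm. Receptors of the TNF, interleukin and Toll families recruit TRAF adaptors, ubiquitin ligases and RIP kinases, which activate the IKK complex. IKK phosphorylates the IkB proteins and thereby marks them for degradation, and the freed dimers enter the nucleus and induce adhesion, survival and inflammatory genes together with their own inhibitors. A slower, noncanonical branch runs through the kinase NIK and the processing of the NFKB2 product. In glioblastoma the pathway is known for its activity in tumours of the mesenchymal type.

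Of the 37 genes, 36 passed the filter on low counts and were tested. VCAM1, an endothelial adhesion receptor gene, had 3 to 9 reads per library and was not tested. Of the 36, 10 were higher in the libraries labelled knockdown, 7 were lower and 19 did not pass an edgeR adjusted p of 0.05. Over all 14315 genes tested, 12.2% were higher and 11% lower by the same rule, or 23.3% in either direction. The members' median log2 fold change was 0.09, against -0.0038 over all genes. In 14 members all 3 libraries labelled knockdown lay above all control libraries and in 10 they lay below, where 18.3% and 19% of all genes did so (37.3% together). The 10 genes called higher were TRAF1, ICAM1, REL, SOD2, NFKB2, CYLD, BIRC3, TRAF3, TNFAIP3 and NFKB1. The 7 called lower were OTULINL, ZFP36, TNFAIP2, BCL3, TNFRSF1A, PTGS2 and NFKBIA. Most of these differences were small, and 4 of the 17 exceeded 0.5 in size on the log2 scale. Over all genes tested 873 of the 3330 called did so, a like share.

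**Figure D1:**
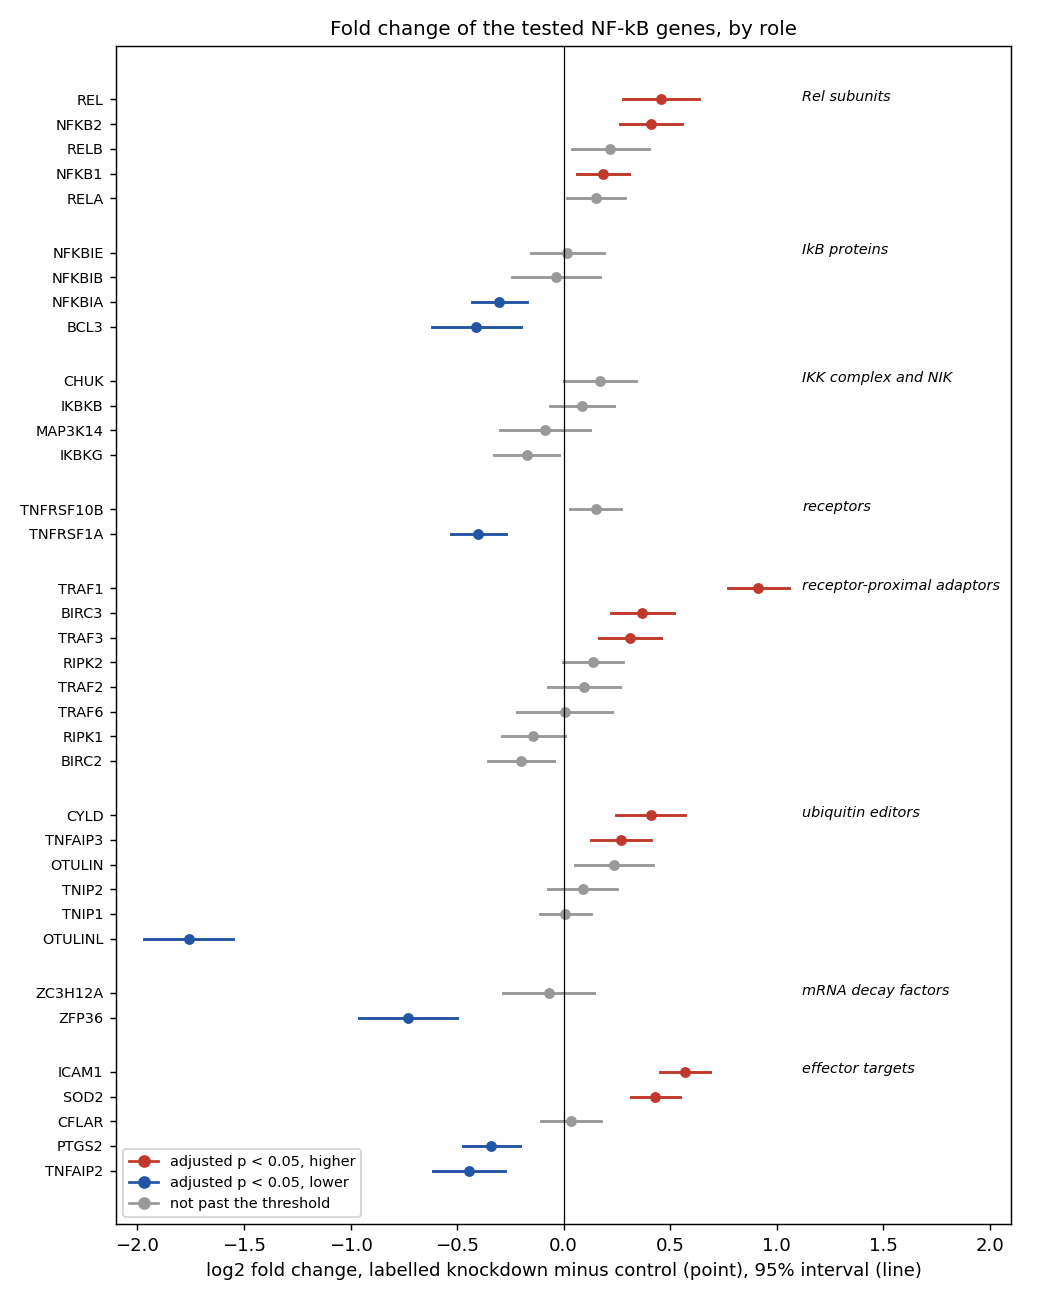
Log2 fold change (labelled knockdown minus control) of the 36 tested NF-kB genes, grouped by role; points are estimates of the edgeR fit, lines are 95% intervals, and colour gives the call. All 5 Rel subunits lie above 0, both called IkB genes lie below it, and OTULINL, at -1.76, lies farthest from 0.

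In all 5 Rel subunit genes the libraries labelled knockdown lay above all control libraries, as they did in 18.3% of all genes tested. Of the 5 subunit genes 3 rose, 0 fell and 2 did not pass, where 12.2% of all genes rose and 11% fell. At an unadjusted p of 0.05 the edgeR test had 5 higher and 0 lower. At an adjusted p of 0.05 DESeq2 and limma-voom each had 3 higher and 0 lower, as edgeR did. REL, which encodes c-Rel, a subunit with a transactivation domain, stood at 34.6, 31.2 and 28.98 CPM in the control libraries and at 39.8, 43.5 and 46.6 CPM in the libraries labelled knockdown. The groups were separate, and REL was 1.37-fold higher (log2 fold change 0.46 ± 0.08 SE, adjusted p by edgeR = 9.26e-04). NFKB2, whose precursor protein is processed into the noncanonical subunit, stood at 97.6, 95.7 and 105 CPM in the control libraries. Every library labelled knockdown was higher, at 143, 132 and 122 CPM, by 1.33-fold on the fitted scale (log2 fold change 0.41 ± 0.07 SE, adjusted p by edgeR = 4.47e-04).

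NFKB1 encodes the precursor of the DNA-binding partner in the most common dimer. It was at 136, 132 and 126 CPM in the control libraries and at 148, 149.8 and 151 CPM in the libraries labelled knockdown. That separation was narrow but complete (log2 fold change 0.19 ± 0.06 SE, adjusted p by edgeR = 0.0276). Leaving out control replicate 2 ended the NFKB1 call (edgeR adjusted p = 0.105), as did leaving out control replicate 3 (0.149), labelled knockdown replicate 2 (0.106) or labelled knockdown replicate 3 (0.0574). RELA, the principal transactivating subunit, was at 131, 119 and 127 CPM in the control libraries and at 149, 139 and 132 CPM in the libraries labelled knockdown. The groups nearly touched, and RELA did not pass (log2 fold change 0.15 ± 0.06 SE, adjusted p by edgeR = 0.0977). RELB, the transactivating partner of the noncanonical subunit, was at 34.7, 38.95 and 39.7 CPM and 49.6, 41.4 and 41.1 CPM and did not pass either (log2 fold change 0.22 ± 0.09 SE, adjusted p by edgeR = 0.0738). With an offset for gene length and GC content in the edgeR fit both passed, at log2 fold changes of 0.25 (adjusted p = 1.53e-04) and 0.35 (5.64e-05). RELA passed in 2 and RELB in 4 of 15 alternatives. Without labelled knockdown replicate 1 their log2 fold changes were 0.11 and 0.13 (edgeR adjusted p = 0.159 and 0.188). With the offset the calls over all genes went from 1753 higher and 1577 lower to 2564 and 2077. The same offset moved REL, counted over 11204 bp, from 0.46 to 0.29, and its call remained.

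Compared per gene length, the subunits made up the Rel mRNA pool in unequal parts. In the authors' FPKM, RELA held 38.9 ± 1.23% (SD, n = 3) of the summed level of the 5 subunits in the control libraries and 36.8 ± 0.383% in those labelled knockdown. NFKB2 held 21.02 ± 0.8703% and 23.7 ± 0.791%, NFKB1 24.5 ± 1.07% and 23.7 ± 1.44%, RELB 13.4 ± 1.09% and 13.2 ± 0.836%, and REL 2.25 ± 0.198% and 2.63 ± 0.33%. The shares of RELA and NFKB2 did not overlap between groups. An exact two-sided permutation test gave 0.1 for each of these, which is the smallest p that 3 against 3 libraries allow, and 0.25 after Benjamini-Hochberg adjustment over the 5 shares.

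The 3 called subunit genes each had a match to the kB consensus, the NF-kB binding motif, in the 250 bases before a RefSeq transcription start. These stretches are shown because the subunit genes are known targets of their own family. They are given 5′ to 3′ on the gene's strand, with the match in capitals and up to 20 bases of flank on either side.
NFKB1: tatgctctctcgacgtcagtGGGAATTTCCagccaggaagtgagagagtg
NFKB2: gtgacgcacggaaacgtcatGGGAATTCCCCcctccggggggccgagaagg
REL: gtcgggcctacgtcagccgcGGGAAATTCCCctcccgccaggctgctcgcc
In GRCh38.p14, the build of the RefSeq table and not that of the authors' alignment, these lie at chr4:102501290-102501339, chr10:102394451-102394501 and chr2:60881507-60881557, all on the plus strand. The matches begin 49, 107 and 47 bases before the annotated start. NFKB2 had 4 separate matches before 2 annotated starts, of which 1 is printed. The capitals of NFKB2 and REL span 11 bases because 2 overlapping matches were merged. A match to the letters does not show that the site was bound in these cells.

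Among the 4 IkB genes grouped here NFKBIA and BCL3 fell, and NFKBIB and NFKBIE did not pass, where 12.2% of all genes rose and 11% fell. The IkB family genes NFKBIZ and NFKBID, counted below with the other pathway genes, did not pass either. Their log2 fold changes were -0.05 and -0.11 (edgeR adjusted p = 0.62 and 0.63). NFKBIA encodes IkB alpha, which holds NF-kB dimers in the cytoplasm and is resynthesised as rapid negative feedback. It was at 148, 152 and 157 CPM in the control libraries and at 130.3, 122 and 118 CPM in the libraries labelled knockdown. All 3 of the latter were lower, by 1.23-fold on the fitted scale (log2 fold change -0.30 ± 0.06 SE, adjusted p by edgeR = 0.00185). BCL3, an IkB family member that acts in the nucleus as a cofactor of DNA-bound subunits, was at 67.2, 73.5 and 79.5 CPM and 64.6, 56.2 and 45.8 CPM. Its groups did not overlap, but the libraries labelled knockdown were widely spread (log2 fold change -0.41 ± 0.10 SE, adjusted p by edgeR = 0.00643). With the length and GC offset the log2 fold change of NFKBIA was -0.18 (edgeR adjusted p = 0.00121) and that of BCL3 -0.27 (4.70e-04). NFKBIB and NFKBIE, which encode the inhibitors IkB beta and IkB epsilon, had overlapping groups. NFKBIE, the highest of the IkB genes by fold change, was at 38.9, 43.01 and 45.9 CPM in the control libraries and 47.1, 41.2 and 41.1 CPM in the others. The 95% intervals of NFKBIB and NFKBIE were -0.24 to 0.17 and -0.15 to 0.19, and the sign of both depended on the setting.

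The NFKBIA promoter is shown because it carried the same motif as the subunit genes while the mRNA moved the other way.
NFKBIA: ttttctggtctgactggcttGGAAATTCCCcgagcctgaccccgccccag
It lies at chr14:35404801-35404850 on the minus strand of GRCh38.p14, and the match begins 81 bases before the start. Set against the main subunit it restrains, the FPKM ratio of NFKBIA to RELA was 1.85, 2.1 and 2.03 in the control libraries. In the libraries labelled knockdown the ratio was 1.44, 1.45 and 1.47. The groups were separate, and the log2 ratio differed by -0.45. This was 1 of 4 ratios chosen after the values were seen; an exact two-sided permutation test gave 0.1, the smallest p possible, and 0.133 after Benjamini-Hochberg adjustment over the 4.

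None of the 4 kinase genes passed the edgeR test, where 23.3% of all genes passed in either direction. At an unadjusted p of 0.05 edgeR had 0 higher and 1 lower. DESeq2 and limma-voom each called 0 at an adjusted p of 0.05. CHUK and IKBKB encode the catalytic IKK subunits, and their log2 fold changes were 0.17 (95% interval -0.00 to 0.34) and 0.08 (-0.06 to 0.23). CHUK was at 34.03, 33.7 and 31.3 CPM in the control libraries and at 33.4, 38.2 and 39.5 CPM in the libraries labelled knockdown, with groups that overlapped slightly. IKBKG encodes the regulatory subunit NEMO. It was at 62.1, 63.4 and 69.5 CPM in the control libraries and at 61.5, 57.1 and 54.7 CPM in the libraries labelled knockdown, a separation of less than 1 CPM (edgeR adjusted p = 0.0898). IKBKG has a near-identical pseudogene copy, so its count is uncertain. MAP3K14, which encodes NIK, the kinase of the noncanonical branch, was at 18.8 ± 2.53 and 17.7 ± 0.585 CPM (SD, n = 3 each) and did not pass. Its 95% interval was -0.30 to 0.13.

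At the receptors, TNFRSF1A fell and TNFRSF10B did not pass, where 12.2% of all genes rose and 11% fell. TNFRSF1A encodes the main TNF receptor. It was at 185, 179 and 179 CPM in the control libraries and at 147, 132 and 132 CPM in the libraries labelled knockdown, 1.32-fold lower without overlap (log2 fold change -0.40 ± 0.06 SE, adjusted p by edgeR = 1.69e-04). TNFRSF10B, a death receptor for the ligand TRAIL, was at 169.7, 167 and 168 CPM and 179, 187 and 195 CPM. All 3 libraries labelled knockdown were higher, yet the call was missed (log2 fold change 0.15 ± 0.06 SE, adjusted p by edgeR = 0.0629). It passed with the length and GC offset (log2 fold change 0.21, adjusted p = 2.96e-04).

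Of the 8 adaptors, ubiquitin ligases and RIP kinases at the receptors, 3 rose, 0 fell and 5 did not pass. For the lower direction the edgeR test had 1 gene at an unadjusted p of 0.05. DESeq2 and limma-voom called 0 at an adjusted p of 0.05. Over all genes tested 12.2% rose and 11% fell. TRAF1, an adaptor without ligase activity that is itself a strongly induced NF-kB target, had the highest fold change of the 37 genes. It stood at 48.4, 54.04 and 49.1 CPM in the control libraries and at 96.4, 98.2 and 90.98 CPM in the libraries labelled knockdown. The lowest of the latter was well above the highest control, and TRAF1 was 1.88-fold higher (log2 fold change 0.91 ± 0.07 SE, adjusted p by edgeR = 1.31e-07). TRAF3, which keeps NIK unstable and so restrains the noncanonical branch, was at 91.6, 78.8 and 80.5 CPM and 106, 99.3 and 106 CPM (log2 fold change 0.31 ± 0.07 SE, adjusted p by edgeR = 0.00373).

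BIRC2 and BIRC3 encode related ubiquitin ligases (cIAP proteins) and lie next to each other on chromosome 11. BIRC3, the inducible member of the pair, was at 68.4, 64.4 and 61.4 CPM in the control libraries and at 77.1, 86.3 and 87.2 CPM in the libraries labelled knockdown (log2 fold change 0.37 ± 0.07 SE, adjusted p by edgeR = 0.00119). BIRC2 was at 82.1, 79.5 and 75.9 CPM and 62.3, 68.8 and 75.2 CPM, so its groups were separate in the opposite direction with little room between them, and it did not pass (log2 fold change -0.20 ± 0.07 SE, adjusted p by edgeR = 0.0576). The FPKM ratio of BIRC3 to BIRC2 was 0.517, 0.502 and 0.501 for the controls against 0.768, 0.778 and 0.719 for the labelled knockdown (log2 difference 0.57; exact two-sided permutation p = 0.1, adjusted 0.133). With the length and GC offset BIRC3 had a log2 fold change of 0.24 (edgeR adjusted p = 2.88e-04), and BIRC2 passed at -0.25 (2.71e-04).

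The remaining adaptor genes stayed closer to the controls. TRAF2, a partner of the cIAP proteins, and TRAF6, the ligase used by interleukin and Toll receptors, had overlapping groups, with 95% intervals of -0.07 to 0.26 and -0.22 to 0.23. TRAF2 passed with the length and GC offset (log2 fold change 0.20, edgeR adjusted p = 0.00824), and the sign of TRAF6 depended on the setting. RIPK1, the scaffold kinase of the TNF receptor complex, was at 50.6, 46.9 and 46.3 CPM and 43.98, 44.8 and 41.9 CPM. RIPK2, the kinase of the NOD receptors, was at 42.6, 40.7 and 41.6 CPM and 45.3, 46.05 and 46.1 CPM. Neither pair of groups overlapped, RIPK1 being lower and RIPK2 higher, and neither gene passed (edgeR adjusted p = 0.16 and 0.152). RIPK2 passed with the length and GC offset (log2 fold change 0.16, adjusted p = 0.0298) but not with the replicate block added to it (0.0555).

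**Figure D2:**
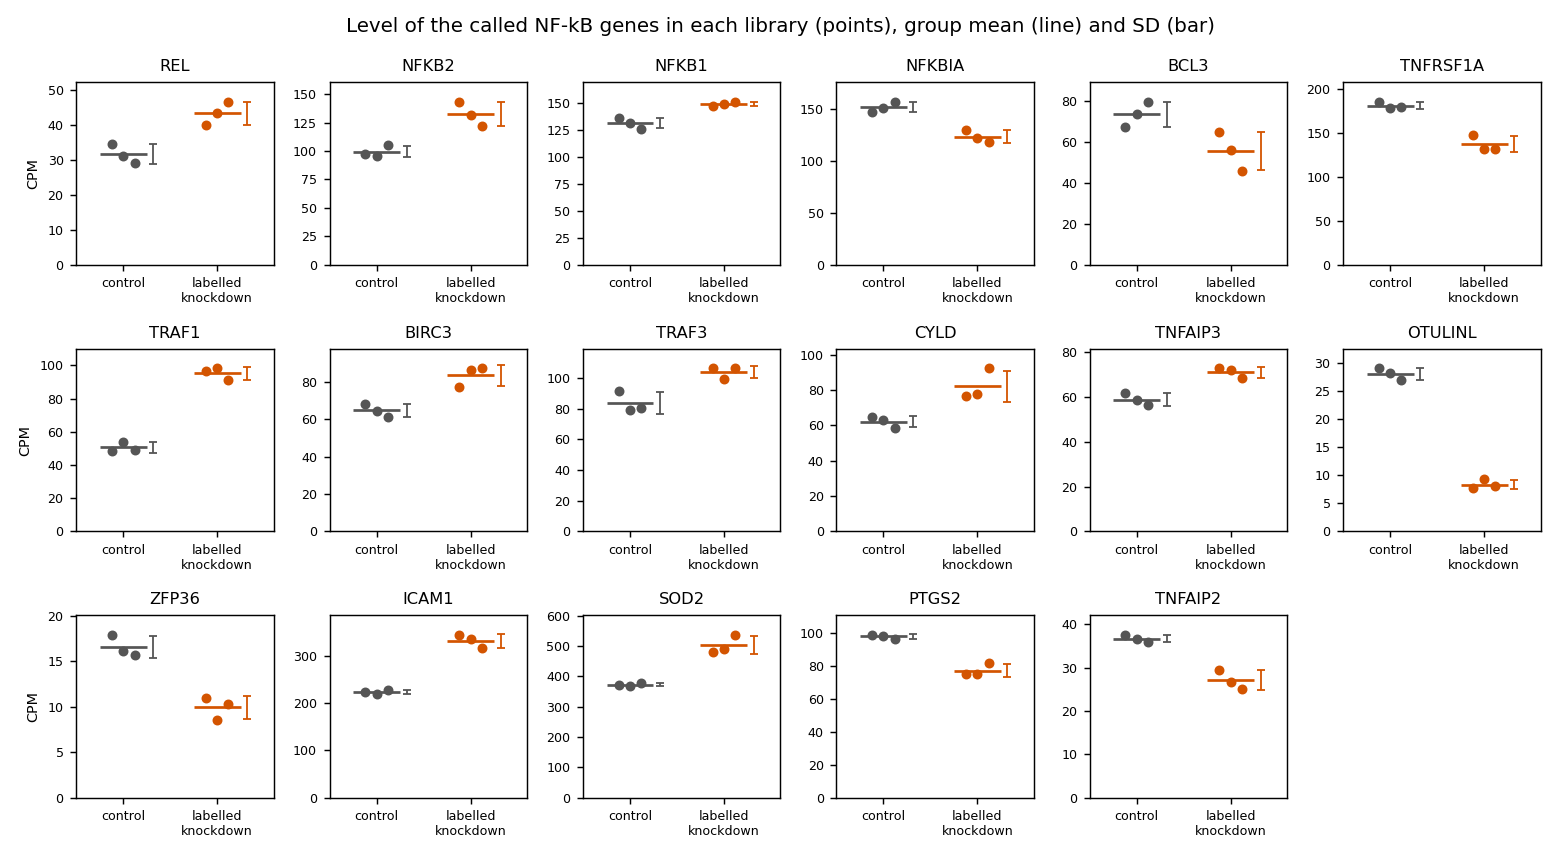
CPM of the 17 NF-kB genes called by the edgeR test, in each of the 3 control and 3 labelled knockdown libraries (points), with the group mean (line) and SD (bar); every axis starts at 0. In each panel the 2 groups are separate, with the widest gap relative to the level in OTULINL and the narrowest in BCL3.

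Proteins that edit or read ubiquitin chains act as brakes on the pathway. They are grouped here with OTULINL, which is catalytically inactive. Of 6 genes 2 rose, 1 (OTULINL) fell and 3 did not pass, where 12.2% of all genes rose and 11% fell. The log2 fold change was positive in 5 of the 6 and negative in OTULINL. CYLD, a deubiquitinase that trims chains from TRAF proteins and NEMO, was at 64.6, 63.2 and 58.6 CPM in the control libraries and at 76.8, 77.6 and 92.4 CPM in the libraries labelled knockdown. The highest value came from labelled knockdown replicate 3 (log2 fold change 0.41 ± 0.08 SE, adjusted p by edgeR = 0.00115). With the length and GC offset it was 0.27 (1.92e-04). TNFAIP3, an NF-kB-induced ubiquitin-editing enzyme, was at 61.9, 58.5 and 56.3 CPM and 72.9, 72.03 and 68.5 CPM without overlap (log2 fold change 0.27 ± 0.07 SE, adjusted p by edgeR = 0.00744), and leaving out control replicate 3 ended this call (adjusted p = 0.0554). Its ubiquitin-binding partners TNIP1 and TNIP2 had overlapping groups, with 95% intervals of -0.11 to 0.13 and -0.07 to 0.25. TNIP2 passed with the length and GC offset (0.20, edgeR adjusted p = 0.0137), and the sign of TNIP1 changed with the setting.

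OTULINL showed the largest difference of the 37 genes. It is a catalytically inactive relative of OTULIN, the enzyme that cleaves linear ubiquitin chains, and the 2 genes lie next to each other on chromosome 5. OTULINL was at 29, 28.1 and 26.95 CPM in the control libraries and at 7.66, 9.28 and 7.98 CPM in the libraries labelled knockdown. This 3.39-fold fall (log2 fold change -1.76 ± 0.10 SE, adjusted p by edgeR = 3.22e-09) was the 58th lowest log2 fold change of all 14315 genes tested. OTULIN was at 36.7, 33.4 and 29.5 CPM and 39.1, 36.3 and 41.7 CPM, with groups that overlapped, and did not pass (log2 fold change 0.24 ± 0.09 SE, adjusted p by edgeR = 0.0576). The FPKM ratio of OTULINL to OTULIN was 0.894, 0.955 and 1.03 for the controls against 0.222, 0.289 and 0.216 for the labelled knockdown (log2 difference -2.00; exact two-sided permutation p = 0.1, adjusted 0.133). The ratio was thus near 1 in the controls and far below it in the other 3 libraries. The fourth ratio, of NFKB2 to NFKB1, was 0.815, 0.823 and 0.947 against 1.101, 1.001 and 0.914, with overlapping groups (exact two-sided permutation p = 0.2, adjusted 0.2).

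Promoter stretches of the called brakes and adaptors with a motif match are shown for comparison with the subunit genes. Both TNFAIP3 and BIRC3 had 2 separate matches, and the one farther from the start is printed in capitals. The nearer match of TNFAIP3 begins 55 bases before the start and lies in lower case within its printed flank.
TNFAIP3: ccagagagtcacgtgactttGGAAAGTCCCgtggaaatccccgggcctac
BIRC3: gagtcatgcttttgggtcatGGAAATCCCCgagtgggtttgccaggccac
TRAF3: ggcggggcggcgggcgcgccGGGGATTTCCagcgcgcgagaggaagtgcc
CYLD: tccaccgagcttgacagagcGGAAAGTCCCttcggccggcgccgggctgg
They lie at chr6:137867172-137867221, chr11:102317265-102317314, chr14:102777396-102777445 and chr16:50741877-50741926 on the plus strand of GRCh38.p14. The matches begin 67, 199, 33 and 189 bases before the start.

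Of the genes for factors that destroy inflammatory mRNAs, ZFP36 fell and ZC3H12A did not pass, where 12.2% of all genes rose and 11% fell. ZFP36 encodes tristetraprolin, which binds AU-rich elements. It was at 17.9, 16.1 and 15.7 CPM in the control libraries and at 10.99, 8.57 and 10.3 CPM in the libraries labelled knockdown, 1.66-fold lower (log2 fold change -0.73 ± 0.11 SE, adjusted p by edgeR = 1.52e-04). The groups were well apart although the counts were modest, at 97 to 285 reads per library. ZC3H12A, the endonuclease regnase, was at 20.001, 18.9 and 20.8 CPM and 20.5, 20.9 and 16.1 CPM, with an interval of -0.28 to 0.14 and a sign that depended on the setting.

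The effector targets divided. Of 5 tested genes 2 rose, 2 fell and 1 did not pass, where 12.2% of all genes rose and 11% fell. ICAM1, which encodes a leukocyte adhesion receptor and is a classical NF-kB target, was at 222, 219 and 228 CPM in the control libraries and at 344, 335 and 316 CPM in the libraries labelled knockdown. It was 1.49-fold higher, far outside the spread of either group (log2 fold change 0.57 ± 0.06 SE, adjusted p by edgeR = 1.63e-06). SOD2, the mitochondrial superoxide dismutase, was at 372, 369.6 and 377 CPM and 481, 489 and 537 CPM and was 1.35-fold higher (log2 fold change 0.43 ± 0.05 SE, adjusted p by edgeR = 3.10e-05). SOD2 was counted over 17678 bp and shares exon sequence on the opposite strand with ACAT2 (1141 bp) and WTAP (437 bp). The log2 fold changes of these neighbours were 0.02 and 0.23, so the count of SOD2 cannot be fully separated from theirs if strand was not used.

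PTGS2, the inducible cyclooxygenase of prostaglandin synthesis, was at 99.1, 98.7 and 96.6 CPM in the control libraries and at 75.1, 75.2 and 81.96 CPM in the libraries labelled knockdown (log2 fold change -0.34 ± 0.06 SE, adjusted p by edgeR = 0.00102). TNFAIP2, a TNF-induced gene, was at 37.5, 36.7 and 35.8 CPM and 29.6, 26.7 and 25.03 CPM (log2 fold change -0.44 ± 0.08 SE, adjusted p by edgeR = 8.16e-04). Both fell without overlap between groups, opposite to ICAM1 and SOD2. CFLAR, which encodes an inhibitor of death receptor signalling, had overlapping groups and an interval of -0.10 to 0.18, and its sign depended on the setting. VCAM1 was at 0.503, 0.5803 and 0.253 CPM in the control libraries and at 0.4998, 0.265 and 0.552 CPM in the libraries labelled knockdown, so no difference could be detected at this depth.

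ICAM1 had no match to the full kB consensus in the window searched, but it held the shorter motif GGAAATTCC. It is printed here with its flanks because ICAM1 had the highest FPKM of the genes called higher, though SOD2 was higher in CPM.
ICAM1: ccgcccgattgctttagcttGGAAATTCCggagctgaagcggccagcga
This stretch lies at chr19:10270914-10270962 on the plus strand of GRCh38.p14 and the motif begins 186 bases before the start. RefSeq promoter windows were matched by symbol for 32 of the 37 genes. Both strands were searched, and the 2 motifs can overlap. The kB consensus was present for 12 of the 32 genes (37.5%), against 11.8% of all 27305 genes in the table. The motif GGAAATTCC was present for 5 of the 32 (15.6%), against 0.502% of all genes. Of the 32 genes, 16 are textbook NF-kB targets, so these shares are not independent of how the members were chosen. Of the 12 genes with the consensus, 7 rose, 1 fell (NFKBIA), 3 did not pass and 1 was not tested. Of the 20 without it, 3 rose (TRAF1, ICAM1 and SOD2) and 6 fell. Over all genes tested, with or without the motif, 12.2% rose and 11% fell. Calls among all genes with the motif were not counted, and whether motif and direction are related was not tested.

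A split by known inducibility cut across the roles. Of 18 members that textbooks list as NF-kB-induced, 17 were tested: 8 rose, 4 fell and 5 did not pass, with a median log2 fold change of 0.19. Of the 19 other members 2 rose (TRAF3 and CYLD), 3 fell (OTULINL, TNFRSF1A and ZFP36) and 14 did not pass, with a median of 0.08. The induced genes that fell were NFKBIA, BCL3, PTGS2 and TNFAIP2. Over all 14315 genes tested 12.2% rose and 11% fell, or 23.3% in either direction. The difference between these classes was not tested.

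Ordered by level per gene length, the 37 genes spanned from NFKBIA, at 97.3 ± 3.21 FPKM in the control libraries, to VCAM1, at 0.139 ± 0.0534 FPKM (SD, n = 3 each). TNFRSF1A (79.3 ± 1.597 FPKM) and ICAM1 (75.3 ± 1.61 FPKM) followed NFKBIA and differed from each other by little more than their spread. TNIP1 (55.8 ± 1.03), RELA (48.9 ± 2.51), TNFRSF10B (42.2 ± 0.356) and BCL3 (39.2 ± 3.32 FPKM) came next, the last 2 overlapping within their SD. In the libraries labelled knockdown the order at the top was ICAM1 (111 ± 5.03 FPKM), NFKBIA (78.5 ± 4.02 FPKM) and TNFRSF1A (59.7 ± 3.82 FPKM). TRAF1 went from rank 22 to rank 12 of the 37, from 11.3 ± 0.679 to 21.2 ± 0.8701 FPKM. PTGS2 went from rank 11 to rank 17. OTULINL, at 3.99 ± 0.142 FPKM, stood next to OTULIN (4.18 ± 0.448 FPKM) and CFLAR (4.14 ± 0.172 FPKM) in the control libraries and second to last in the others, at 1.18 ± 0.122 FPKM. This order depends on the fixed gene lengths behind the FPKM. SOD2, counted over 17678 bp, ranked below ICAM1 (2967 bp). In CPM it was above ICAM1, at means of 373 against 223 (control) and 502 against 331 (labelled knockdown).

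**Figure D3:**
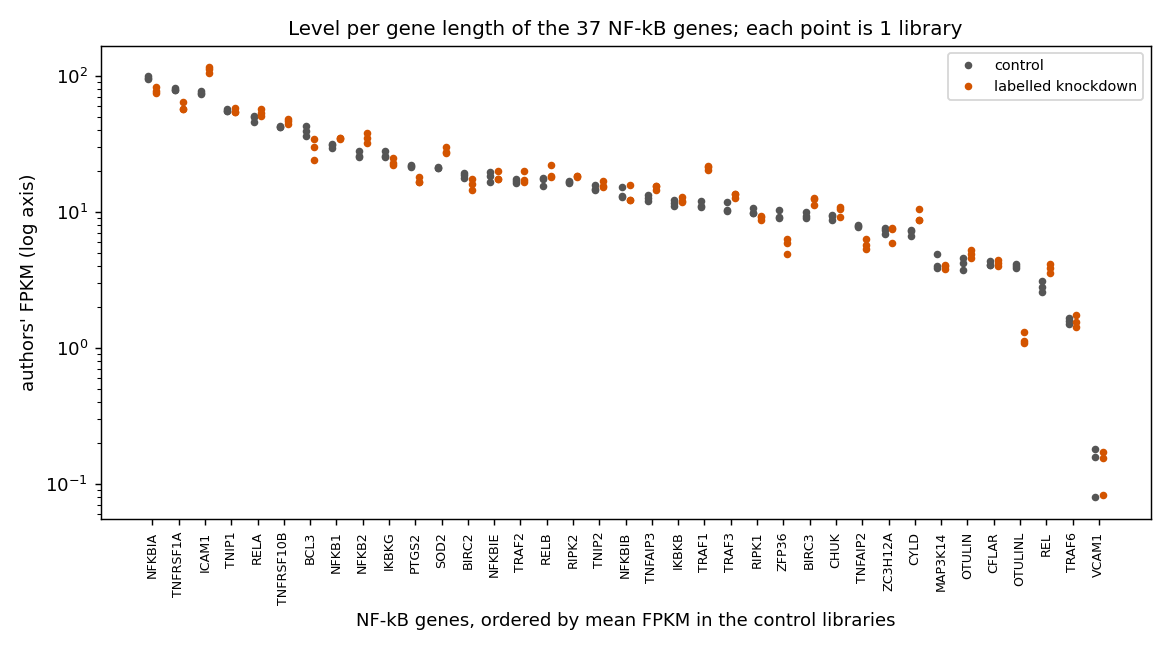
The authors' FPKM (log axis) of the 37 NF-kB genes in each library, ordered by the mean of the control libraries; grey points are control and orange points labelled knockdown. ICAM1 and TRAF1 stand above their neighbours in the libraries labelled knockdown, ZFP36 and OTULINL below, and VCAM1 is lowest in both groups.

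Genes of the pathway outside the 37 were looked at in the same fit. Of 64 listed receptors, adaptors, kinases and ubiquitin enzymes, 62 were tested: 12 rose, 5 fell and 45 did not pass, with a median log2 fold change of -0.01, where 12.2% of all genes rose and 11% fell. DESeq2 called 11 higher and 3 lower, and limma-voom 12 and 5. TNIP3, a relative of TNIP1, was low, with a mean of 1.28 ± 0.182 CPM (SD, n = 3) in the controls and 3.49 ± 0.283 CPM in the labelled knockdown, and rose 2.73-fold (edgeR adjusted p = 1.21e-04). The interleukin receptor kinase gene IRAK2 rose 1.598-fold, from 13.96 ± 1.72 to 22.4 ± 2.79 CPM. RNF11, a partner of TNFAIP3, and TLR3, a sensor of double-stranded RNA, rose 1.402-fold and 1.37-fold. Leaving out control replicate 1 ended the call of TLR3 (edgeR adjusted p = 0.0562). IRAK1, the kinase upstream of TRAF6, fell 1.23-fold, and the receptor gene TNFRSF11A 1.26-fold, which missed the threshold when control replicate 2 (0.0596) or labelled knockdown replicate 2 (0.065) was left out. IL1R1, the interleukin 1 receptor gene, and ECSIT, a TRAF6 adaptor gene, fell 1.29-fold and 1.19-fold. The IL1R1 call was lost without control replicates 1 or 2 or labelled knockdown replicates 1 or 3 (highest adjusted p = 0.105), and also with DESeq2 (0.0748) and the replicate block (0.073). That of ECSIT was lost in 11 of 15 alternatives, among them the fits without each library but labelled knockdown replicate 1 (highest adjusted p = 0.182) and with the length and GC offset, which moved it from -0.26 to -0.13.

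Of 34 further known targets 29 were tested: 6 rose, 8 fell and 15 did not pass, with a median of -0.03, beside the same 12.2% and 11% over all genes. DESeq2 called 6 higher and 6 lower, and limma-voom 6 and 7. C3, the central complement component, rose 1.502-fold (edgeR adjusted p = 1.28e-06), with means of 266 ± 13.7 and 399.6 ± 8.895 CPM, and the survival gene BCL2A1 1.77-fold from 9.72 ± 1.76 to 17.2 ± 0.734 CPM. BMP2, a bone morphogenetic protein gene, rose 1.602-fold. The metalloprotease gene MMP9 rose 2.39-fold, from 0.678 ± 0.368 to 1.59 ± 0.688 CPM, with groups that overlapped. It missed the threshold when control replicate 1 (0.0988), control replicate 3 (0.0856) or labelled knockdown replicate 1 (0.0764) was left out, and with the replicate block (0.0622). CEBPD, an acute-phase transcription factor gene, fell 1.43-fold from 69.1 ± 7.35 to 48.3 ± 7.53 CPM, and its log2 fold change was -0.52, or -0.31 with the length and GC offset. The sugar transporter gene SLC2A6, the matrix-binding gene TNFAIP6 and SAT1, an enzyme of polyamine breakdown, fell 1.4-fold, 1.27-fold and 1.27-fold. Among 14 tested cytokine and chemokine targets 5 rose and 0 fell. The edgeR test had 1 lower at an unadjusted p of 0.05. DESeq2 and limma-voom called 0 lower at an adjusted p of 0.05. IL1A (1.02 ± 0.08), IL1B (0.98 ± 0.10), IL32 (0.60 ± 0.08) and LIF (0.49 ± 0.06) had the largest log2 fold changes (SE), and CCL2 was the other gene that rose. TNF itself was at 0.112 ± 0.0992 and 0.114 ± 0.0992 CPM, under the filter.

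Fold change across all genes followed the gene length behind the FPKM (Spearman's rho 0.30 across 13828 genes, which are not independent replicates) and GC content (-0.26). Single libraries also differed in both within their groups. The rho of a library's deviation from its group mean ran from -0.38 (labelled knockdown replicate 1) to 0.41 (control replicate 1) for length, and from -0.51 (labelled knockdown replicate 3) to 0.58 (labelled knockdown replicate 1) for GC content. Among the 2863 shortest genes (55 to 1941 bp) the median log2 fold change was -0.11 and among the 2861 longest (6306 to 93098 bp) it was 0.11. Of the shortest genes 95 were called higher and 461 lower by the edgeR test, and of the longest 790 and 192. Calls thus leaned lower among short genes and higher among long ones, whether or not they were members. The 3 members among the shortest, NFKBIA, BCL3 and ZFP36, were all called lower. The 9 members among the longest had a median of 0.31, and they included both the called higher REL, TRAF3, BIRC3, SOD2 and CYLD and the called lower OTULINL. With the length and GC offset all 17 calls remained, and 16 members in all were called higher and 8 lower, among 2564 and 2077 over all genes. What part of each difference goes with length or GC content was not tested beyond this offset.

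**Figure D4:**
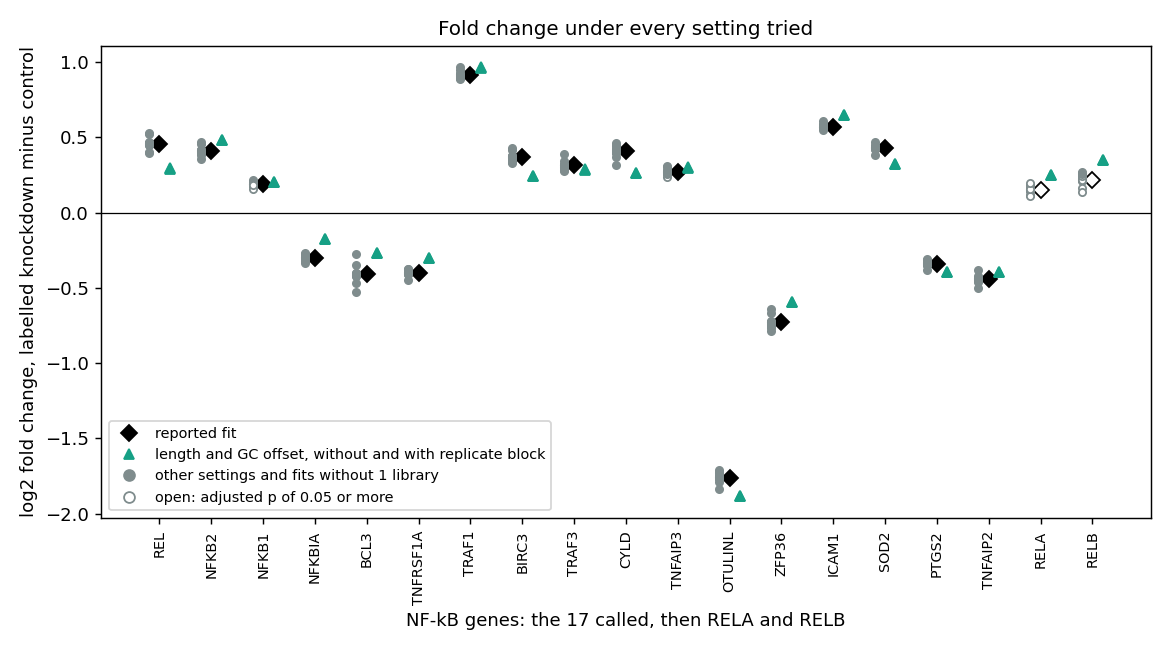
Log2 fold change of the 17 called NF-kB genes and of RELA and RELB in the reported fit (diamonds), with a length and GC offset (triangles) and under the other settings and the fits without 1 library (circles); open symbols did not pass an adjusted p of 0.05. None of these genes changes sign, and open symbols occur for NFKB1, TNFAIP3, RELA and RELB.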

How the data were processed

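Total RNA libraries of LN229 cells, 3 per group, were, per the labels' protocols, prepared with a stranded kit. FastQC, MultiQC, Trim Galore, HISAT2 and the build hg19 are listed in the submitters' processing notes. How reads were counted, with which strand setting and annotation, is not given in the sources used here. The authors deposited 1 table per library, whose counts are whole, unnormalised reads per gene symbol. The authors' FPKM divides each count by a fixed gene length and the library total, which returned whole lengths (within 0.001 bp) for each of 21754 genes. TPM, deposited beside it by the authors, was not used for results.

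Counts were fitted with edgeR 4.0.16 in R 4.3.3 (filterByExpr, TMM, glmQLFit and glmQLFTest, group as the only term, all 6 libraries), and p-values were adjusted over 14315 genes. The standard error is the log2 fold change divided by the square root of F, and CPM uses TMM-scaled library sizes. The edgeR fit was also run on counts simulated from its own means and dispersions. These held no length or GC trend, so that run says nothing about such trends. DESeq2 1.42.0, limma-voom (limma 3.58.1), other scalings and filters, a replicate block, leaving out each library, and an offset were tried as alternatives. The offset came from natural splines (5 df each) of each library's deviation on length and on GC content (GENCODE v29 transcripts, 96.6% of tested genes). No replicate was a copy of another: chi-square over degrees of freedom was 1.95 to 8.54 between replicates. Intervals cover these libraries only.

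The members, lists and most tests were chosen with earlier results of these data known. All 37 members are accounted for. Of the other lists, up to 4 called genes per direction were named, by size of the log2 fold change. CCL2 was named beyond this rule, after its value was seen. NFKBIZ and NFKBID, which were not called, were named beside the IkB genes, also with their values known. NFKBIZ stands in the pathway and target lists and was counted in the former. TRIM25 is given as a check of the labels. The 4 FPKM ratios and both motifs were chosen after values were seen. Exon overlaps come from GENCODE v29 and promoters from RefSeq on GRCh38.p14. NFKBIE, RELB, IKBKB, RIPK2 and TNFRSF10B had no promoter entry matched and were not searched.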

Additional observations from a re-analysis of the deposited data

How the results depend on the processing

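Over 15 alternatives for each of the 36 tested members, 489 of 540 values kept their direction and their side of the threshold, 23 gained a call, 6 lost one (NFKB1 and TNFAIP3) and 22 changed sign. All 17 called genes kept their direction under every alternative run. The count of members called higher, 10, was 16 with the length and GC offset (15 with the replicate block added) and 8 to 13 without 1 library. The count called lower, 7, was 7 or 8 throughout. Over all genes the 3330 calls became 4641 with the offset, 1891 with the replicate block and 1826 to 4941 without 1 library. Of the fits without 1 library, the count was over 1.5 times lower without control replicate 2 (1826), control replicate 3 (1877) and labelled knockdown replicate 2 (1868).

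Deviations from the group means were not shared by libraries of 1 replicate number (Pearson's r -0.19, 0.01 and -0.22 across genes), so the numbers do not show a pairing. Under the replicate block 9 members were higher and 7 lower, NFKB1 being the call lost.

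The sign changes were all in genes that did not pass in any of these fits. With the length and GC offset, NFKBIB became 0.0809 (0.0795 with the block), TRAF6 -0.11 (-0.11), CFLAR -0.11 (-0.11) and ZC3H12A 0.0182 (0.0202). With no composition factor TNIP1 was -0.0020 and TRAF6 -0.0046. Without 1 library, NFKBIB ranged from -0.15 to 0.044, NFKBIE from -0.045 to 0.075, MAP3K14 from -0.15 to 0.030, TNIP1 from -0.018 to 0.026, TRAF6 from -0.066 to 0.073, CFLAR from -0.0087 to 0.083 and ZC3H12A from -0.13 to 0.055. The cause was not tested. The difference in the RELA share, -2.14 percentage points, ranged from -2.75 to -1.52 without 1 library, and the 4 log2 FPKM ratios kept their sign.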
